A study of Mus with 6 samples.

Results

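The genes described here are Zfp36, Zfp36l1, Zfp36l2, Zc3h12a, Btg1 and Btg2, which encode proteins that limit the life or the output of mRNAs induced early after a stimulus. They were found by symbol among the 55421 genes counted in the RNAseq, and each of the 6 had counts in every library. The series compared lens epithelial cells (LECs) of wild type C57BL/6 mice at 0 h and at 6 h post cataract surgery (PCS), a mouse model in which the fiber cell mass is taken out of the lens and the LECs stay on their capsule in the eye. The 3 libraries of a time point were each made from 5 pooled capsules, so a value describes the pool and not a single mouse. All libraries came from unmodified mice that the labels give as 2 months old, while the methods text gives a higher age, and the 0 h group was itself operated and collected without an interval. The fellow eye of a mouse was operated 6 h after the first and both capsules were then taken, so the 0 h and 6 h pools can share mice, in pairs that the labels leave unnamed. The question for these genes is whether their mRNA levels had changed 6 h after fiber cell removal, and whether related genes changed alike.

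ZFP36 (also called TTP), ZFP36L1 and ZFP36L2 are zinc finger proteins that bind AU-rich elements in the untranslated region after the stop codon and recruit the CCR4-NOT complex, which removes the poly(A) tail and so starts the decay of the mRNA. Zc3h12a encodes regnase-1, an endonuclease that cuts stem-loops in cytokine and other inflammatory mRNAs. BTG1 and BTG2 are antiproliferative proteins that bind the deadenylases of CCR4-NOT and poly(A)-binding proteins and stimulate deadenylation. Many of these genes are themselves immediate early or inflammation-induced genes, and several of their mRNAs carry the elements that their products bind.

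Between 18039974 and 24701039 read pairs per library were counted on genes, which was 33.6% to 41.2% of the read pairs in the files, with the lowest share in 6 h replicate 1. Levels are given as CPM (counts per 1000000 gene counts of the library, after TMM scaling), a scale that sets the libraries to a common level through genes assumed not to change. Differences were tested with the quasi-likelihood test of edgeR, with Benjamini-Hochberg adjustment over the 16810 genes that passed its filter on low counts. A gene was called when its adjusted p was at most 0.05 and its fold change was above 2. Of 7 lens epithelial markers at hand (of 12 listed), all had counts, with a summed level of 1883 to 2173 CPM at 0 h and 1653 to 1888 CPM at 6 h PCS, while the leukocyte markers (7 of 12) summed to 15.5 to 26.8 CPM and 19.7 to 35.7 CPM. The pigment cell markers (4 of 8) summed to 209, 63.8 and 51.4 CPM at 0 h and to 77.4, 456 and 1965 CPM at 6 h PCS, and the erythrocyte markers (5 of 6) to 7.94 to 19.5 CPM and 73.5 to 133 CPM, with all 5 called up. The sums of the other lists overlapped between the time points, with fiber cell markers (2 of 12) at 1326 to 1814 CPM and 1170 to 1600 CPM, corneal epithelial markers (3 of 6) at 348 to 495 CPM and 318 to 451 CPM, and endothelial markers (4 of 6) at 4.10 to 26.3 CPM and 20.0 to 36.9 CPM. Single markers within these lists moved apart from the sums. Every 6 h library lay above every 0 h library in Cd68 of the leukocyte list (0.619 to 1.51 CPM and 3.96 to 9.34 CPM), in Krt12 (0.437 to 7.01 CPM and 44.2 to 65.8 CPM) and Krt5 (0.328 to 7.70 CPM and 24.9 to 38.4 CPM) of the corneal list, in Pecam1 (0.518 to 1.16 CPM and 1.75 to 4.76 CPM) and Cdh5 (0.0863 to 0.387 CPM and 0.940 to 4.76 CPM) of the endothelial list, and in Foxe3 and Epha2 of the lens epithelial list. Of these, Cd68 and Epha2 were called up. The groups lay apart in the opposite direction in Aldh3a1, which made up most of the corneal sum (347 to 481 CPM and 231 to 347 CPM), and in the lens epithelial markers Sox2, Prox1 and Pdgfra, none of which was called. The last 3 passed the limit on adjusted p (0.0151, 0.0119 and 0.0179). Their log2 fold changes of −0.70, −0.75 and −0.73 were short of a fold change of 2. No marker at hand was at 0 in all 6 libraries. In these pooled samples a change in the number of cells of a type and a change in the RNA per cell cannot be told apart.

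Of the 6 genes, 4 were upregulated at 6 h PCS, namely Zfp36, Zfp36l1, Zc3h12a and Btg2, and the other two, Zfp36l2 and Btg1, were not called. Over all tested genes, 762 of 16810 were called up (4.53%), and 11.6% of those with a symbol at hand, which lean towards changed genes. The 6 genes were chosen with earlier results of these data known. In 5 of the 6 genes every 6 h library lay above every 0 h library, and only in Btg1 did the groups overlap. Such separation held for 2566 of all tested genes (15.3%) and for 26.8% of those with a symbol. The median log2 fold change was 2.92 over the 6 genes and −0.003 over all tested genes.

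**Figure D1:**
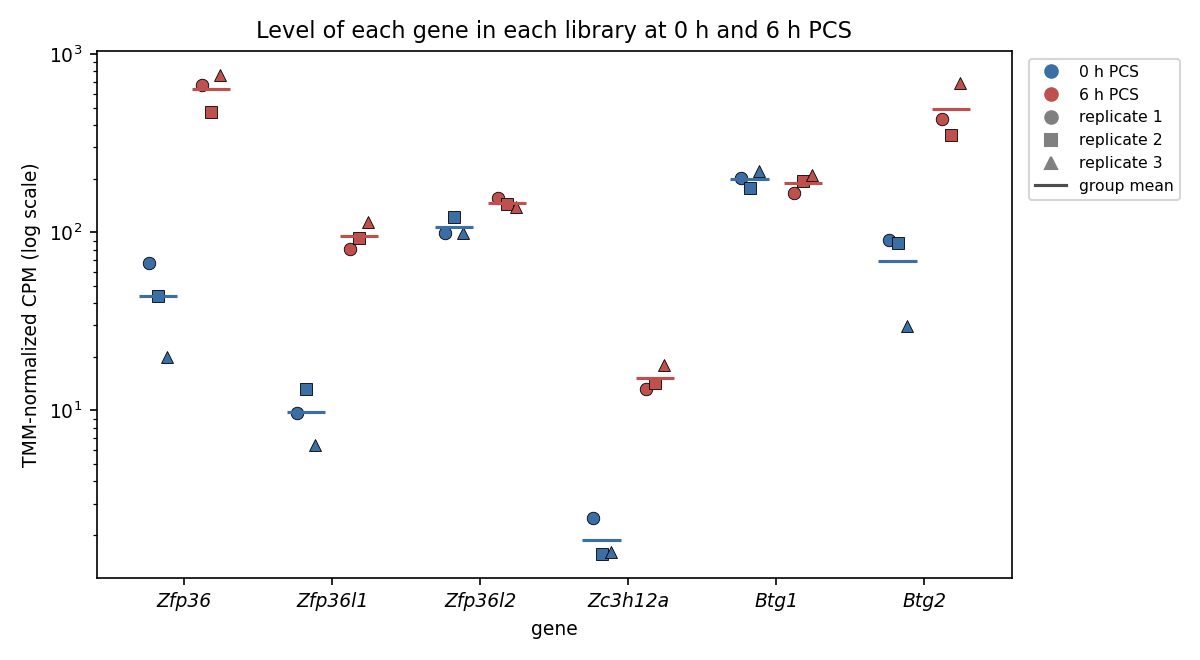
Level of the 6 genes in each library as TMM-normalized CPM on a log axis, with 0 h PCS in blue and 6 h PCS in red, a symbol per replicate number and a line at the group mean. Zfp36, Zfp36l1, Zc3h12a and Btg2 stand clear of their 0 h levels in all 3 libraries at 6 h, Zfp36l2 lies slightly above, and Btg1 overlaps.

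Zfp36, on chromosome 7 (chr7:28376784-28379228, GRCm38; ENSMUSG00000044786), encodes the founding member of the family and showed the largest change of the 6. Its level at 0 h PCS was 67.2, 43.9 and 20.0 CPM in replicates 1, 2 and 3, from 1561, 1204 and 464 counts. At 6 h PCS it was 674, 473 and 767 CPM, from 10038, 10517 and 12738 counts. The 3 libraries at 0 h were thus spread over 3.35-fold and those at 6 h over 1.62-fold, but the lowest 6 h library was still 7.04-fold above the highest 0 h library. The mean of 43.7 ± 23.6 CPM at 0 h became 638 ± 150.4 CPM at 6 h PCS (SD, n = 3). This was a log2 fold change of 3.87 with a standard error of 0.483 (95% interval 2.70 to 5.04, a fold change of 14.6) and an adjusted p of 0.00697.

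Zfp36l1, which encodes the second zinc finger protein of this group, lies on chromosome 12 (chr12:80107760-80113013; ENSMUSG00000021127). It was measured at 9.72, 13.2 and 6.43 CPM at 0 h PCS and at 80.5, 92.9 and 113.9 CPM at 6 h PCS, from 149 to 361 and from 1200 to 2066 counts. The groups were 6.12-fold apart at their nearest libraries. The log2 fold change was 3.29 with a standard error of 0.264 (95% interval 2.70 to 3.88, a fold change of 9.78), and the adjusted p was 0.000214. Its interval overlapped that of Zfp36.

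Zfp36l2, the third gene of the family, lies on chromosome 17 (chr17:84183924-84187947; ENSMUSG00000045817) and behaved differently from its relatives. Its raw counts were 2312, 3363 and 2289 at 0 h and 2312, 3225 and 2295 at 6 h PCS, nearly the same numbers in libraries of smaller effective size at 6 h. After TMM scaling these became 99.5, 123 and 98.8 CPM at 0 h and 155, 145 and 138 CPM at 6 h PCS, so that the groups did not overlap but were only 1.13-fold apart. The log2 fold change was 0.45 with a standard error of 0.137 (95% interval 0.14 to 0.76, a fold change of 1.10 to 1.69), and the gene was not called, with an adjusted p of 0.0771. Scaled on library size alone, its log2 fold change was 0.13, where the median of all tested genes was −0.32.

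Zc3h12a, on chromosome 4 (chr4:125118414-125127881; ENSMUSG00000042677), was the lowest of the 6 genes in counts. Between 37 and 58 counts per library at 0 h PCS gave 2.50, 1.57 and 1.60 CPM, and between 196 and 316 counts at 6 h PCS gave 13.2, 14.2 and 18.1 CPM. The lowest 6 h library lay 5.27-fold above the highest 0 h library, and the spread within a time point was at most 1.59-fold. The log2 fold change of this regnase-1 gene was 3.00 with a standard error of 0.295 (95% interval 2.34 to 3.66, a fold change of 8.02), with an adjusted p of 0.000411.

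Btg2, on chromosome 1 (chr1:134074865-134079155; ENSMUSG00000020423), encodes the induced member of the BTG pair. Its level was 90.8, 87.0 and 29.6 CPM at 0 h and 432, 353 and 692 CPM at 6 h PCS, from 687 to 2388 and from 6435 to 11488 counts. As in Zfp36, 0 h replicate 3 was far below the other two libraries of its group and 6 h replicate 3 was the highest of all. The groups were 3.89-fold apart, and the log2 fold change was 2.83 with a standard error of 0.511 (95% interval 1.57 to 4.09, a fold change of 7.12) and an adjusted p of 0.0277. This call was the least firm of the 4. It was lost when any of 4 libraries was left out, namely 0 h replicate 1 (adjusted p = 0.056), 0 h replicate 2 (0.0646), 6 h replicate 1 (0.101) or 6 h replicate 3 (0.0821), while the log2 fold change stayed between 2.46 and 3.07 over the 6 fits that each left out a library. It was also lost in a test against a fold change of 2 (adjusted p = 0.145), without a filter on low counts (0.0803) and with the replicate number as a block (0.158).

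Btg1, on chromosome 10 (chr10:96617001-96622813; ENSMUSG00000036478), is the close relative of Btg2. It was measured at 201, 177 and 222 CPM at 0 h and at 167, 195 and 209 CPM at 6 h PCS, and the groups overlapped. The log2 fold change was −0.07 with a standard error of 0.146 and an adjusted p of 0.813, and its 95% interval, −0.40 to 0.25, corresponds to a fold change of 0.760 to 1.19. Its sign was not stable, with 0.0045 without 0 h replicate 3 and 0.011 without 6 h replicate 1. The interval thus held no increase above 1.19-fold and no decrease below 0.760 of the 0 h level.

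**Figure D2:**
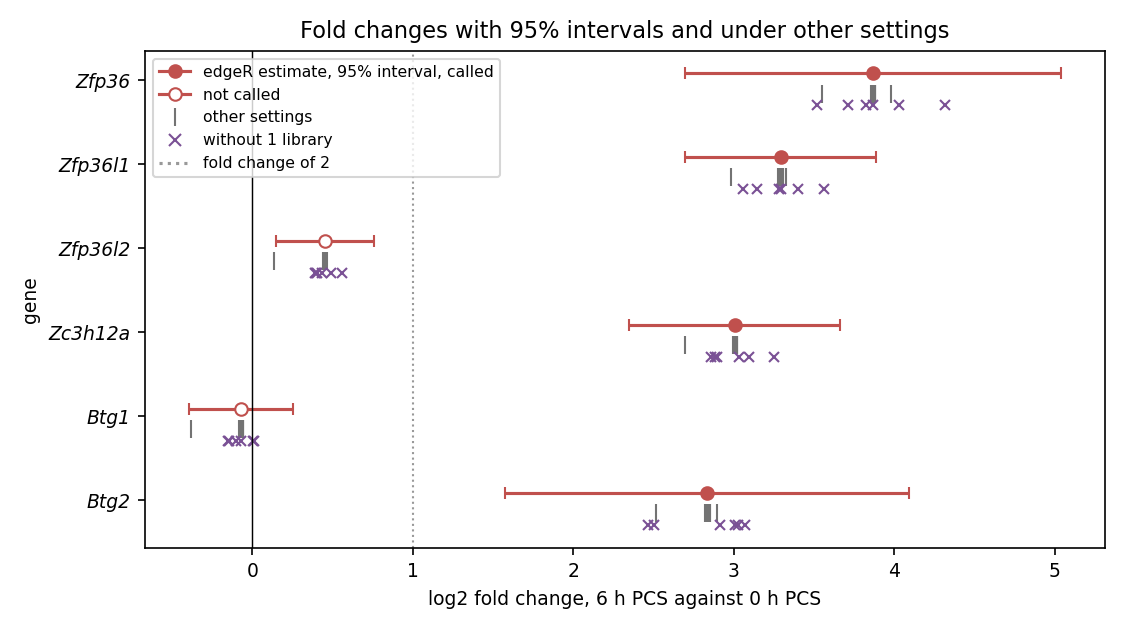
Log2 fold change of the 6 genes at 6 h against 0 h PCS, with the edgeR estimate and its 95% interval (red, filled where called), the values under the other settings (grey ticks) and those without 1 library (purple crosses). Zfp36, Zfp36l1, Zc3h12a and Btg2 lie beyond the dotted line at a fold change of 2 in every fit, with Zfp36 between 3.52 and 4.31, and Zfp36l2 and Btg1 lie below it in every fit.

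Zfp36, Zfp36l1 and Zc3h12a were called in all 11 other settings and in all 6 fits without a library, with log2 fold changes of 3.52 to 4.31, 2.98 to 3.56 and 2.69 to 3.25. The adjusted p of Zfp36 came close to the limit without 6 h replicate 1 (0.0495). In Zfp36l1 and Zc3h12a it was at most 0.0023 and 0.00296 over these fits. Zfp36l2 and Btg1 were called in none of these 17 fits. The adjusted p of Zfp36l2 fell below 0.05 with DESeq2 (0.0355), but its fold change stayed under 2. No gene of the RefSeq annotation of GRCm38 overlapped any of the 6. The nearest neighbours were 97 bp from Zfp36l2 (the long non-coding RNA Gm36279) and 567 bp from Zfp36l1 (Gm52006), and the next closest was 3301 bp away, at Btg2. RefSeq also lists close copies on chromosome X, Btg1b and Btg1c for Btg1 and the pseudogene Zfp36l1-ps for Zfp36l1. Reads that match a copy as well are not counted when they align to more than a single place, so the levels of these genes are uncertain to that extent.

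Levels of different genes can be compared only per length, and exon lengths were at hand for 4 of the 6. At 0 h PCS Btg2 stood at 25.2 ± 12.5 CPM per kb of exon, Zfp36 at 12.6 ± 6.79, Zfp36l1 at 3.27 ± 1.12 and Zc3h12a at 0.655 ± 0.183 (SD, n = 3). The ranges of Btg2 and Zfp36 overlapped, although Btg2 was the higher in each of the 3 libraries, whereas Zfp36, Zfp36l1 and Zc3h12a were separated from each other. At 6 h PCS Zfp36 reached 184 ± 43.3 and Btg2 179.5 ± 64.6 CPM per kb, which did not differ beyond their spread. Zfp36l1, at 32.0 ± 5.63, and Zc3h12a, at 5.26 ± 0.898, were again lower and separated. The length used for Zfp36, 3470 bp, exceeds its RefSeq span of 2445 bp, so its level per length may be understated.

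Related genes of a family differed in the size of their change. A ratio of 2 genes within a library does not depend on how the libraries are scaled, and the change of a ratio between time points does not depend on the lengths of the genes. The log2 count ratio of Zfp36 to Zfp36l2 was −0.57, −1.48 and −2.30 at 0 h and 2.12, 1.71 and 2.47 at 6 h PCS, a difference of 3.55 (11.7-fold). That of Zfp36l1 to Zfp36l2 went from −3.35, −3.22 and −3.94 to −0.95, −0.64 and −0.28, a difference of 2.88 (7.36-fold). In the BTG pair, the log2 ratio of Btg2 to Btg1 was −1.15, −1.02 and −2.90 at 0 h and 1.37, 0.86 and 1.73 at 6 h PCS, a difference of 3.01 (8.06-fold), which was 2.40 without 0 h replicate 3. The 0 h and 6 h libraries did not overlap in any of these 3 ratios, and each gave p = 0.1 in an exact two-sided permutation test (0.133 adjusted over the 4 ratios tested). That is the smallest value which 3 libraries against 3 allow, so this test cannot pass 0.05. The ratio of Zfp36 to Zfp36l1 moved less, by 0.67, from 2.05 ± 0.64 to 2.72 ± 0.36 (SD, n = 3). Its groups overlapped, with p = 0.3 in the exact permutation test (0.3 adjusted).

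**Figure D3:**
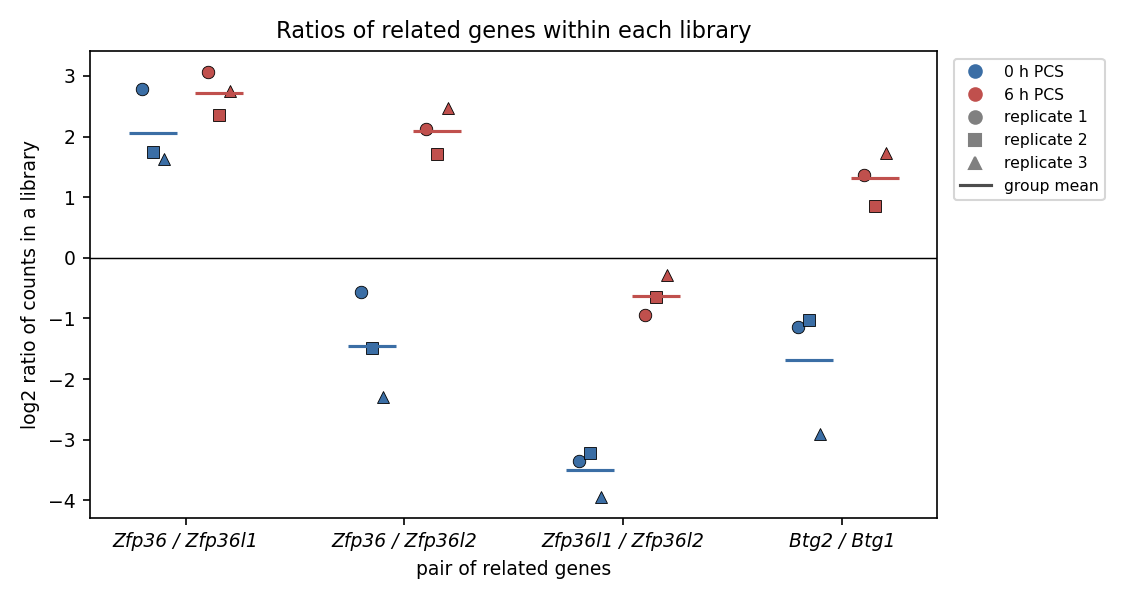
Log2 ratio of the counts of 2 related genes within each library at 0 h PCS (blue) and 6 h PCS (red), with a symbol per replicate number and a line at the group mean. The ratios to Zfp36l2 and that of Btg2 to Btg1 lie higher in all 3 libraries at 6 h, while the ratio of Zfp36 to Zfp36l1 overlaps between the time points.

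The share of each gene in the counts of its family, which is not corrected for length, moved accordingly. Zfp36 held 38.1%, 24.4% and 16.0% of the counts of the 3 ZFP36 genes at 0 h and 74.1%, 66.5% and 75.3% at 6 h PCS. The share of Zfp36l2 went from 56.4%, 68.2% and 78.9% to 17.1%, 20.4% and 13.6%. The summed level of the 3 genes went from 160.4 ± 30.5 to 879.9 ± 156 CPM (SD, n = 3), 5.49-fold, and that of Btg1 and Btg2 from 269 ± 20.8 to 683 ± 191 CPM, 2.54-fold. Most of the increase in both sums was thus in the induced genes, Zfp36 and Btg2.

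The spread between replicates also differed among the 6 genes. At 0 h PCS the highest library exceeded the lowest by 3.35-fold in Zfp36, 3.06-fold in Btg2 and 2.05-fold in Zfp36l1, against 1.59-fold in Zc3h12a, 1.25-fold in Btg1 and 1.24-fold in Zfp36l2. The lowest 0 h library was replicate 3 in Zfp36, Zfp36l1, Zfp36l2 and Btg2, and replicate 2 in Zc3h12a and Btg1. At 6 h PCS replicate 3 was the highest library in every gene except Zfp36l2, where it was the lowest. This library also had the highest pigment cell markers, at 1965 CPM, and the highest level of the fiber cell marker Crygb, at 253 CPM against 8.32 and 7.87 CPM in the other 6 h libraries and 103.9 to 113.3 CPM at 0 h PCS. Without it the log2 fold changes were 3.71 in Zfp36 (adjusted p = 0.039), 3.15 in Zfp36l1 (0.000544), 2.86 in Zc3h12a (0.0013) and 2.50 in Btg2 (0.0821). At 0 h PCS the pigment cell sum fell from replicate 1 to replicate 3 (209, 63.8 and 51.4 CPM), as did Zfp36 and Btg2. Zfp36l1 and Zc3h12a followed other orders. In 6 h replicate 1 the pigment cell markers, at 77.4 CPM, lay within the 0 h range, and there Zfp36 was at 674 CPM, Zfp36l1 at 80.5, Zc3h12a at 13.2 and Btg2 at 432 CPM, each above all 0 h libraries. The 5 erythrocyte markers, Cd68, Krt12, Krt5, Pecam1, Cdh5, Foxe3 and Epha2 were higher in all 6 h libraries, as were these 4 genes. The part of these markers and of the pigment cell markers in the result was not tested.

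**Figure D4:**
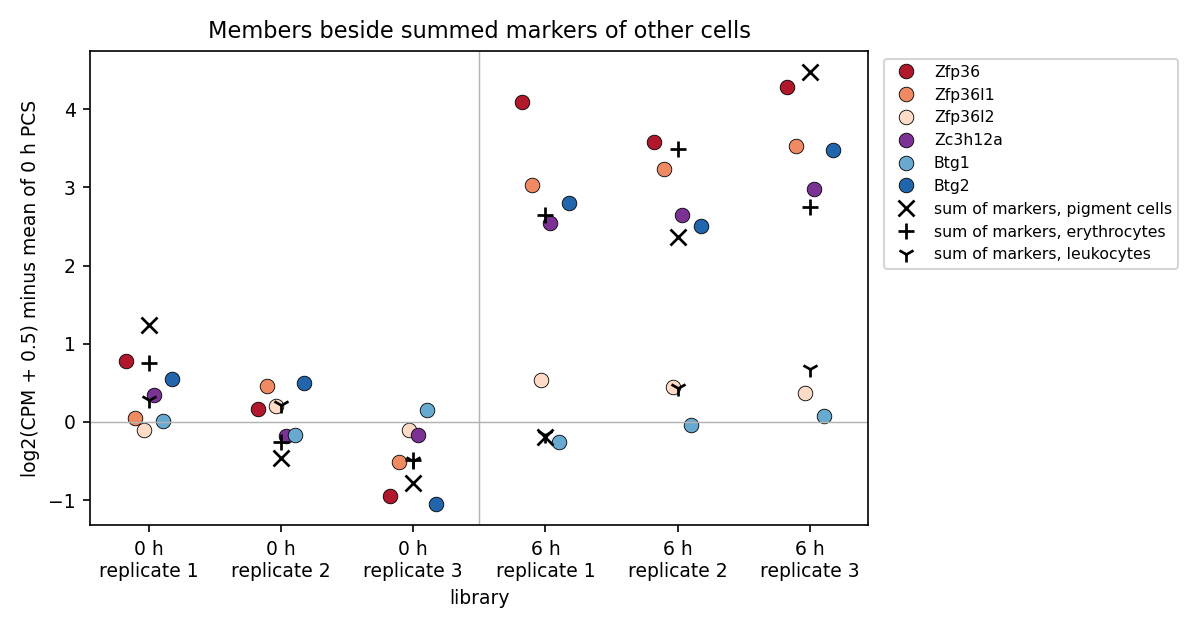
The 6 genes (circles) and the summed markers of pigment cells, erythrocytes and leukocytes (black signs) in each library, as log2(CPM + 0.5) minus the mean of the 0 h libraries. The pigment cell sum is highest in replicate 1 at 0 h, as are Zfp36, Zc3h12a and Btg2, and in replicate 3 at 6 h. The pigment cell sum of 6 h replicate 1 is within the 0 h range while Zfp36, Zfp36l1, Zc3h12a and Btg2 are raised there. The erythrocyte sum is raised in all 3 libraries at 6 h. The part of these cells in the changes was not tested.

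The genes with the most similar profiles were sought among 8203 tested genes (8204 for Zc3h12a) with a mean of at least 10 CPM, of which 3489 (3490) had a symbol and could be named. Likeness was the root mean square difference, over the 6 libraries, of the log2(CPM + 0.5) values centred on the 0 h mean. Nearest to Zfp36 were Ier2 (0.223), an immediate early gene, the channel gene Hcn4 (0.276) and Fos (0.327), a subunit of the AP-1 transcription factor. Fos showed the same order of libraries as Zfp36, with 202, 66.6 and 37.7 CPM at 0 h and 1442, 788 and 1801 CPM at 6 h PCS. Nearest to Zfp36l1 were the phosphodiesterase gene Pde4b (0.249), the transcription factor gene Cebpd (0.269) and Cdr2l (0.323). For Zc3h12a the nearest was Kdm6b (0.0628), a histone demethylase gene that rose from a mean of 109 to 712 CPM with a log2 fold change of 2.71, followed by Gm49774 (0.181) and the heat shock cochaperone gene Dnajb1 (0.183). The order for this low gene depended on the offset, since with 0.05 CPM, a choice made after the data were seen, Noct came nearest (0.174), ahead of Gm49774 (0.182) and Kdm6b (0.187). For the other 5 genes the same 3 neighbours were found with that offset, in another order for Zfp36 and Btg1. Btg2 was most like Serpina3n (0.141), a serine protease inhibitor gene, then Csrnp1 (0.274) and the interferon-induced GTPase gene Igtp (0.318). The neighbours of the uncalled genes differed little from them, with Usp6nl (0.0387), Clip1 (0.0677) and Cerk (0.0689) next to Zfp36l2, and Chst15 (0.0540), Slc39a12 (0.0563) and Syde2 (0.0628) next to Btg1. Among the 6 themselves the smallest differences were those of Zfp36l1 with Btg2 (0.435), Zfp36l2 with Btg1 (0.442) and Zfp36l1 with Zc3h12a (0.506). These were not recomputed with the smaller offset, so the place of the low gene Zc3h12a in this order is uncertain. Btg2 differed from Zfp36 by 0.780, from Zfp36l2 by 1.84 and from Btg1 by 2.22. Since the profiles were centred on the 0 h mean, these differences largely restate the fold changes.

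Of 79 other listed genes of mRNA decay (deadenylation, decapping, the exosome, nonsense-mediated decay, poly(A)-binding and other RNA-binding proteins, and relatives of the 6), 23 could be matched to a symbol and tested. Among them 1 was upregulated, 2 were downregulated and 20 were not called, with a median log2 fold change of −0.17. Over all tested genes 138 were called down (0.821%), and 5.35% were called in either direction. Of the tested genes with a symbol, which lean towards changed genes, 11.6% were called up and 2.10% down, or 13.7% in either direction, so the share of 3 in 23 is near that of the named genes. All 6 h libraries lay above all 0 h libraries in 6 of the 23 genes and below them in 8, where each held for 15.3% of all tested genes, and for 26.8% and 16.4% of those with a symbol.

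The upregulated gene was Noct, whose product nocturnin was described as a deadenylase and also acts on NADP(H). It was at 47.6, 26.2 and 34.5 CPM at 0 h and at 203, 292 and 304 CPM at 6 h PCS, a log2 fold change of 2.88 with a standard error of 0.247 (adjusted p = 0.000273), and it was called in every other setting and without any library. Cnot8, which encodes a catalytic deadenylase subunit of CCR4-NOT that BTG proteins bind, went the other way. Its level fell from 26.6, 35.1 and 30.3 CPM to 10.3, 17.5 and 12.8 CPM, a log2 fold change of −1.18 with a standard error of 0.222 (adjusted p = 0.0111). Exosc5, which encodes a core subunit of the RNA exosome, fell from 7.18, 8.45 and 13.1 CPM to 4.63, 4.05 and 3.43 CPM, a log2 fold change of −1.24 with a standard error of 0.309 (adjusted p = 0.0367). The call of Cnot8 was kept without any of the libraries, and that of Exosc5 in only 1 of those 6 fits, the one without 6 h replicate 1. Both were lost in the test against a fold change of 2.

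Of the other family members, Zc3h12c, a regnase gene, had a log2 fold change of 0.38 (adjusted p = 0.161) and Tob1, a relative of the BTG genes, 0.36 (adjusted p = 0.238), and Zfp36l3, Zc3h12b, Zc3h12d, Btg3, Btg4 and Tob2 were not analysed here. Some uncalled genes were picked out after their values were seen. Arid5a, whose product stabilizes Il6 mRNA against regnase-1, had a log2 fold change of 1.71 with a standard error of 0.442 (adjusted p = 0.0683) and was called in 5 of the 11 other settings. Celf1, a binding protein of GU-rich elements, had a log2 fold change of −0.73 (adjusted p = 0.0211), and Smg1, a kinase of nonsense-mediated decay, one of 0.68 (adjusted p = 0.0128), both short of a fold change of 2.

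The p38 pathway kinase MK2 phosphorylates ZFP36 and weakens its effect on bound mRNAs. Of 9 listed kinases and partners of these proteins, 3 were tested and 2 of them were upregulated, where 4.53% of all tested genes and 11.6% of those with a symbol were called up. Mapkapk2, which encodes MK2, was at 79.3, 71.2 and 73.8 CPM at 0 h and at 166, 167 and 159.8 CPM at 6 h PCS, a log2 fold change of 1.14 with a standard error of 0.122 (adjusted p = 0.000619). Mapkapk3, the gene of the related kinase MK3, was at 2.58, 3.61 and 5.31 CPM and at 10.2, 9.89 and 7.95 CPM, a log2 fold change of 1.29 with a standard error of 0.321 (adjusted p = 0.0373). Both calls were lost with scaling on library size alone and in the test against a fold change of 2, and that of Mapkapk3 was kept in only 1 of the 6 fits without a library, the one without 0 h replicate 3. Mapk14, which encodes p38 alpha, had a log2 fold change of 0.75 (adjusted p = 0.0306) and was short of a fold change of 2.

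Among 16 transcripts that are known to be bound by ZFP36 proteins or regnase-1, 15 were tested. Of these, 8 were upregulated and 7 were not called, with a median log2 fold change of 3.72 (3.62 with Tnf, which had no count at 0 h, at its lower bound). Of the tested genes with a symbol 11.6% were called up, and 4.53% of all tested genes. All 6 h libraries exceeded all 0 h libraries in 14 of the 15, against 26.8% of the genes with a symbol and 15.3% of all. Tnf, Il6 and Csf3 had too few counts at 0 h to pass the filter without their 6 h libraries. Their direction was thus fixed by being tested, and they count among the 8 and the 14. Many of these are inflammatory genes on which the study itself reported in these libraries, so their direction is not independent evidence. The cyclooxygenase gene Ptgs2 was at 4.09, 1.68 and 2.24 CPM at 0 h and at 59.1, 115 and 143 CPM at 6 h PCS, a log2 fold change of 5.31 with a standard error of 0.487 (adjusted p = 0.00167). Nfkbiz, a regulator of NF-kB targets and a known substrate of regnase-1, went from 33.1, 19.3 and 27.3 CPM to 217, 147 and 222 CPM, a log2 fold change of 2.88 with a standard error of 0.236 (adjusted p = 0.000214). Ier3, an early response gene, rose with a log2 fold change of 3.32 (adjusted p = 0.000619), and the cytokine gene Lif with 4.73 (0.00516).

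The cytokine genes Tnf, Il6 and Csf3 had few or no counts at 0 h PCS. Tnf had no count in any 0 h library and 2.01, 0.585 and 1.93 CPM in those at 6 h PCS. Set against a level of 3 counts per library, its mean was at least 12.3-fold higher. Il6 had 8, 0 and 3 counts at 0 h and 117, 187 and 900 counts at 6 h PCS, and Csf3 had 0, 10 and 0 counts at 0 h and 154, 1155 and 575 at 6 h PCS, and both were called (adjusted p = 0.0445 and 0.0178). Il1b was called with a log2 fold change of 2.08 (adjusted p = 0.0495). The calls of Tnf, Ptgs2, Nfkbiz, Ier3 and Lif held in each fit without a library, whereas that of Csf3 held in 3 of the 6 and those of Il6 and Il1b in 2. Fos (log2 fold change 3.72, adjusted p = 0.0599), Cxcl1, Cxcl2, Csf2, Myc, Vegfa and Plaur were not called. In Csf2 alone of the 15 the groups overlapped.

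**Figure D5:**
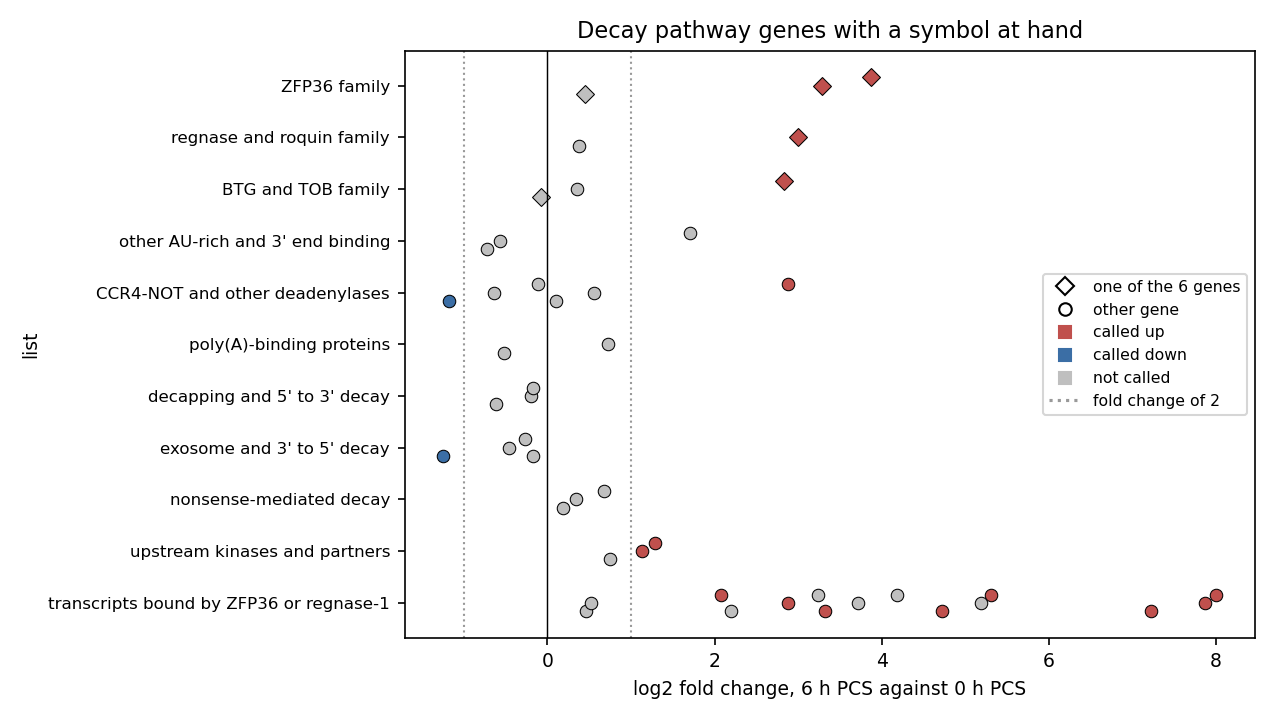
Log2 fold change at 6 h against 0 h PCS of the tested genes of each list, with the 6 genes as diamonds and the others as circles, called up in red, called down in blue and not called in grey. Of the 23 tested genes of mRNA decay other than the 6, Noct lies highest, at 2.88, and 14 of the 15 bound transcripts were higher in all 6 h libraries. Among the latter, Tnf, Il6 and Csf3 passed the low-count filter only through their 6 h libraries.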

How the data were processed

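RNAseq of LECs on lens capsules was measured in 6 libraries, 3 at 0 h and 3 at 6 h PCS. The authors made ribodepleted libraries with a stranded low-input kit, sequenced both ends over 101 nt, used Hisat2 for alignment to GRCm38 and HTSeq for counting pairs on Ensembl genes, and the deposited values are these raw counts, without normalization. The strand setting of the counting is not given in the sources used here. The 5 summary rows of HTSeq were left out, and gene counts were 33.6% to 41.2% of the read pairs in a file.

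The counts of all genes were fitted with edgeR 4.0.16 (R 4.3.3, limma 3.58.1): filterByExpr by group, TMM, robust dispersions and the quasi-likelihood F-test in its earlier form, as in the study's methods. The standard error is the absolute log2 fold change divided by the square root of F. Ratios used log2 of counts plus 0.5 and exact permutation tests in scipy 1.17.1 (Python 3.11.15). The fit was tested on simulated data. The labels call the pools biological replicates, and they were treated as unpaired. No pair of libraries agreed within sampling noise. PCR reads had no molecular identifiers, so limits for counts of 0 cover counting error only.

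The genes and lists were chosen with earlier results of these data known. Symbols came from the study's supplementary tables as far as they were read (7023 genes, 6372 tested) and lean towards changed genes. Named were the 6 genes, the called genes of the lists, other members of their families, and for each gene the 3 nearest profiles. Some markers and uncalled genes of the lists were named as well, some of them picked after their values were seen. Alternatives were DESeq2 1.42.0, the exact test, the quasi-likelihood method of edgeR 4, glmTreat, no robust estimation, 2 other scalings, 3 other filters, a replicate block and leaving out each library. Coordinates are from RefSeq. A gene of the list of bound transcripts is not reported here and was left out of the counts of that list. The knockout experiments were not analysed here.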

Additional observations from a re-analysis of the deposited data

How the results depend on the processing

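Of the 6 genes, 3 to 4 were called up in the 11 other settings and in the 6 fits that each left out a library. Without a library, the log2 fold change of Btg2 ran from 2.46 to 3.07 and that of Btg1 from −0.15 to 0.011. The call of Btg2 was lost with glmTreat (2.83), without a filter on low counts (2.82) and with the replicate block (2.89). The cause was not tested. The number of decay genes called up was 2 with DESeq2, the exact test, no robust estimation, library size alone and the replicate block, and 1 to 2 without a library. The number called down was 0 with glmTreat, where 1 of the 23 genes was called in all, 3 with library size alone, which added Celf1, and 1 to 2 without a library. The 4 ratios kept their direction with an offset of 0 and without each library.

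The deviations of same-numbered pools from their group means correlated with r of −0.00788, 0.283 and 0.156. For differently numbered pools r ran from −0.234 to 0.0537. Whether the numbers pair the pools was thus not settled, and the main fit held no block. With the replicate block 888 genes were called up and 162 down over all genes, against 762 and 138, and 3 of the 6 genes were called. Over all genes, 217 were called up and 4 down with glmTreat, and 572 up and 627 down with library size alone. The number down was 256 with DESeq2, 253 with the exact test, 257 without a filter, 43 without 0 h replicate 1 and 53 without 0 h replicate 3. Counts of 37 to 58 limit Zc3h12a at 0 h.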
